A study of Mus musculus with 7 samples.

Results

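Cholesterol and fatty acid synthesis genes were followed in RNA from splenic natural killer (NK) cells, a class of innate cytotoxic lymphocytes, after culture with interleukin 2 (IL2). The set held 35 genes, chosen by symbol from the pathway with earlier results of these data known. Among the 19752 genes tested, all 35 had a probe with a single gene symbol. Of these, 4 encode the SREBP factors and their regulators, 18 proteins of sterol synthesis (enzymes and a carrier), 9 enzymes of fatty acid synthesis and 4 proteins of cholesterol efflux and oxysterol signalling. The IL2 group was 4 arrays (replicates 1 to 4) of cells cultured in 250 U/ml IL2 over 8 h, and the untreated group was 3 arrays (replicates 2 to 4) of cells kept for the same time without it. The donors of both groups were male C57BL/6 mice aged 6 weeks, and NK cells were enriched from spleen by negative selection (EasySep), which removes other cell types. Each sample was hybridised to 1 Affymetrix Mouse Gene 1.0 ST array. The series asks, by its title, what IL2 does to NK cells in vitro. Separate animals or cultures are not stated for the replicates, and the p-values then measure the spread between arrays, which may be technical.

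SREBP factors are made as precursors in the membrane of the endoplasmic reticulum. When sterols are low, SCAP escorts them to the Golgi, where they are cleaved and released to the nucleus, and when sterols are high INSIG proteins hold SCAP back. SREBP2 acts mainly on sterol genes and SREBP1 on fatty acid genes, while the oxysterol receptors LXR act in the opposite sense on cholesterol and drive its export. In mouse NK cells and T cells, cytokine stimulation is known to engage SREBP activity as part of the metabolic programme of activated cells.

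Markers were read before the lipid genes. Of 13 NK cell markers measured, 6 rose with IL2 and 0 fell, led by the perforin gene Prf1 (log2 fold change 2.83) and the granule membrane gene Nkg7 (2.27). Of 15 macrophage and monocyte markers, 7 fell and 0 rose (median -1.10), with the largest differences in the proteoglycan gene Vcan (-3.00) and the adhesion receptor gene Adgre1 (-2.07). In 9 of the 15 every IL2 array was below every untreated array, in 5 the groups overlapped, and in 1, the complement gene C1qb (0.36, adjusted p = 0.0896 in limma, named after its value was seen), every IL2 array was above. The linear intensities of these 15 markers summed to between 4475 and 6443 in the IL2 arrays and to between 14460 and 14768 in the untreated arrays, and 0 of them were listed at 0. B cell markers were bright as well, with sums over 7 genes of 11834 to 12424 in the IL2 arrays and 13605 to 15320 in the untreated arrays. The values below are those of an enriched population and cannot be assigned to NK cells alone. In such bulk RNA, fewer cells of a type and less RNA per cell cannot be told apart.

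After 8 h with IL2, none of the 35 lipid genes passed the test, while the same fit called 410 genes higher and 178 lower. With limma and a Benjamini-Hochberg adjusted p under 0.05 over all genes, 0 of 35 were higher (2.08% of all genes were) and 0 were lower (0.901% of all genes were). At an unadjusted p under 0.05 the count was 8 of 35, or 22.9%, beside 13.5% of all genes. The median log2 fold change of the 35 genes was 0.11, against -0.01 over all genes, and 22 of 35 were above 0 (62.9%, against 45.5% of all genes), or 17 of 35 after quantile normalization once more. The lipid genes were brighter, with a median log2 intensity of 8.40 against 6.92 over all genes. Over the 9876 genes at or above the median signal, which hold 31 of the 35, the median log2 fold change was 0.05. The groups of arrays did not overlap for 5 genes. The IL2 arrays lay above the untreated arrays for Lss alone among the 35 (6.25% of all genes), and below them for Scd1, Elovl5, Abca1 and Nr1h3, 4 of 35 or 11.4% (3.38% of all genes). For 31 of the 35 genes the 95% interval of the log2 fold change, not adjusted for the number of genes, stayed within 2-fold in either direction. The intervals of Fasn, Lss, Abca1 and Fads1 reached past 2-fold on 1 side.

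**Figure D1:**
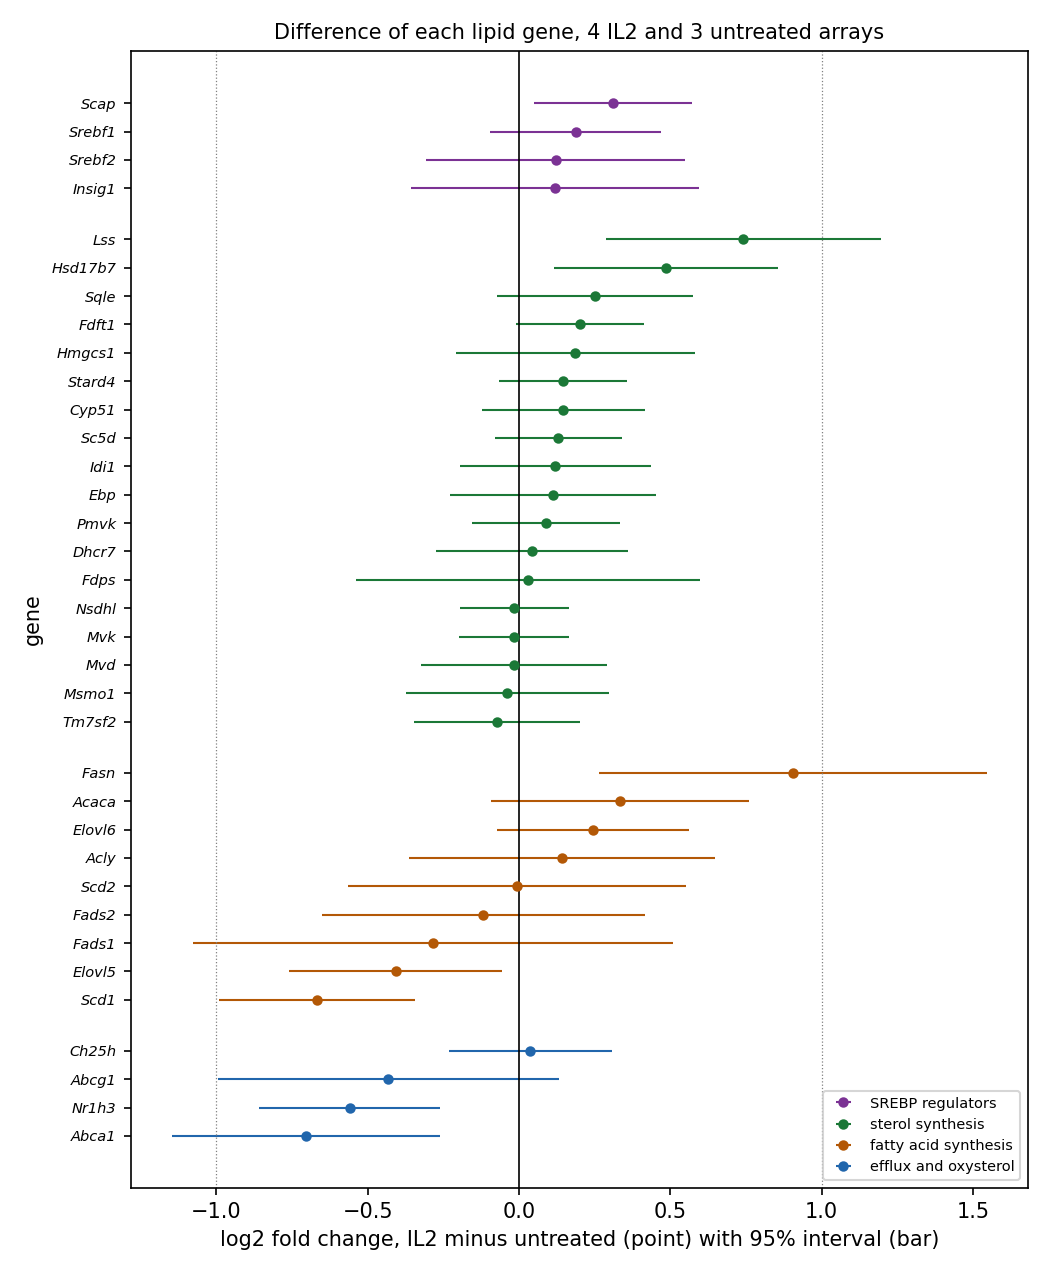
Log2 fold change of IL2 over untreated arrays (x axis, points) with its unadjusted 95% interval from limma (bars) for each of the 35 lipid genes (y axis), coloured by role. Dotted lines mark a 2-fold difference. Sterol synthesis genes run from -0.07 to 0.74, fatty acid genes from -0.67 in Scd1 to 0.90 in Fasn, and 3 of the 4 efflux genes lie below 0.

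When the arrays were quantile normalized once more, 1 of the 35 genes was called higher (Lss) and 4 lower (Scd1, Elovl5, Abca1 and Nr1h3), in a fit that called 694 genes higher and 577 lower. Without untreated replicate 3, Scd1 and Abca1 were called lower, in a fit that called 178 of all 19752 genes higher and 152 lower.

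**Figure D2:**
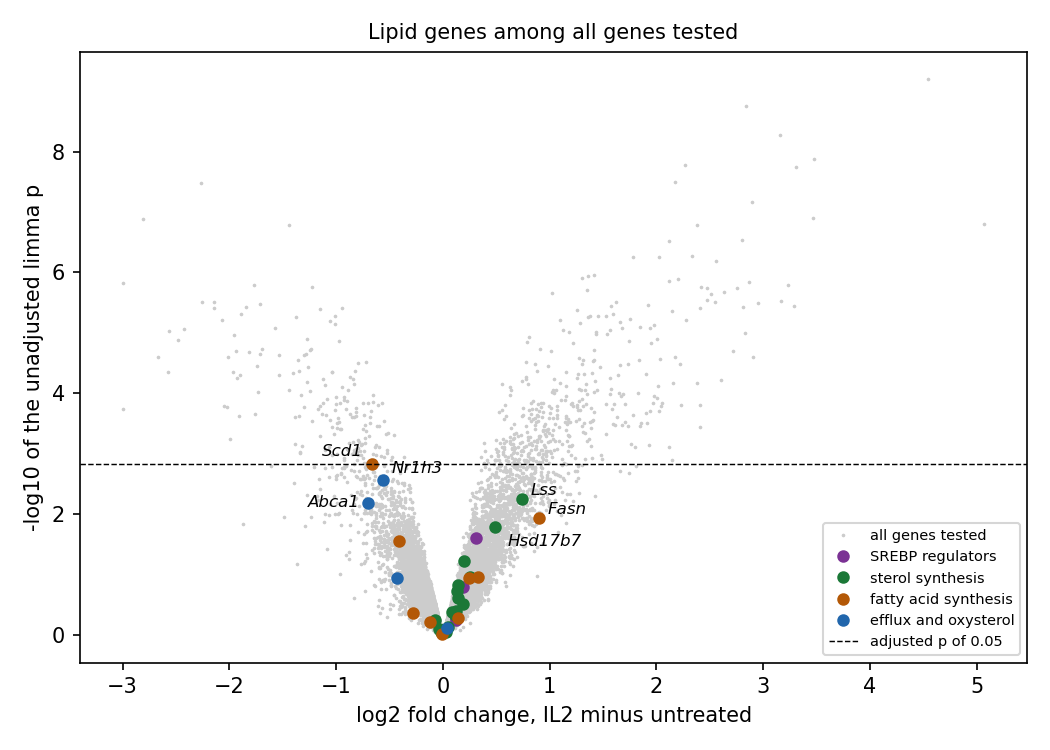
Log2 fold change of IL2 over untreated arrays (x axis) against -log10 of the unadjusted limma p (y axis) for the 19752 genes tested (grey) and the 35 lipid genes (coloured by role). The dashed line is where the adjusted p reaches 0.05. Scd1, at an adjusted p of 0.0505, lies closest to it among the lipid genes.

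The regulators had small positive differences, of which those of Srebf2 and Insig1 turned to -0.04 and -0.02 after quantile normalization once more. Their log2 fold changes ran from 0.12 to 0.31, with a median of 0.15, and 0 of 4 passed the test (1 at an unadjusted p under 0.05). The gene with the largest difference among them was Scap, the escort of the SREBP precursors. Its log2 intensities were 9.44, 9.44, 9.60 and 9.68 in IL2 replicates 1 to 4, against 9.15, 9.09 and 9.44 in untreated replicates 2 to 4. The highest untreated array thus met the 2 lowest IL2 arrays, and the log2 fold change of 0.31 (SE 0.11) had a limma adjusted p of 0.261. Srebf2, which encodes SREBP2, had log2 intensities of 9.90, 10.06, 10.24 and 10.31 with IL2, against 9.96, 9.65 and 10.41 without. Its untreated arrays spanned the whole range of the IL2 arrays, with a log2 fold change of 0.12 (SE 0.18). Srebf1, which encodes SREBP1, stood at 8.18, 8.26, 8.46 and 8.66 in the IL2 arrays, against 8.18, 8.18 and 8.26 in the untreated arrays. IL2 replicates 3 and 4 were above every untreated array and replicates 1 and 2 were not, with a log2 fold change of 0.19 (SE 0.12) and an adjusted p of 0.612 in limma. Insig1, which encodes a protein that holds SCAP in the endoplasmic reticulum and is itself a known SREBP target, showed 9.02, 9.36, 9.55 and 9.80 with IL2, against 9.25, 9.05 and 9.64 without. The groups overlapped along most of their range, with a log2 fold change of 0.12 (SE 0.21) and an adjusted p of 0.881 in limma.

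Sterol synthesis genes mostly differed little between IL2 and untreated cells, and the largest differences, in lanosterol synthase and a late reductase, did not pass the test. Of 18 members, 13 had a positive log2 fold change (10 after quantile normalization once more), the median was 0.12 (then 0.02), and 0 passed the test (2 at an unadjusted p under 0.05). For 17 of 18 the log2 fold change was smaller than 0.5 in size, as it was for 18253 of all 19752 genes. The count is thus not particular to sterol genes. Lss encodes lanosterol synthase, which folds squalene epoxide into the first sterol of the pathway. It had log2 intensities of 7.71, 8.00, 8.15 and 8.18 in the IL2 arrays, against 7.41, 6.82 and 7.58 in the untreated arrays. Every IL2 array was above every untreated array, with means of 8.01 ± 0.21 (SD, n = 4) and 7.27 ± 0.40 (SD, n = 3), a 1.67-fold difference. Its log2 fold change of 0.74 (SE 0.20, 95% interval 0.29 to 1.19) had a limma adjusted p of 0.114. Hsd17b7, a ketosteroid reductase of the later steps, had 7.92, 8.21, 8.49 and 8.46 with IL2, against 7.81, 7.59 and 7.95 without. IL2 replicate 1 lay just under untreated replicate 4 and the other IL2 arrays lay above all untreated arrays, with a log2 fold change of 0.49 (SE 0.16) and an adjusted p of 0.211 in limma.

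The enzymes around squalene came next in size. Sqle, the squalene epoxidase that feeds lanosterol synthase, had log2 intensities of 8.15, 8.25, 8.44 and 8.44 in IL2 arrays, against 8.13, 7.78 and 8.29 in untreated arrays, a log2 fold change of 0.25 (SE 0.14). Fdft1, the squalene synthase that commits farnesyl diphosphate to sterols, had 9.11, 9.35, 9.22 and 9.40 with IL2, against 9.03, 9.11 and 9.07 without, a difference of 0.20 in log2 units (SE 0.09) with an adjusted p of 0.404 in limma. For Fdft1 only IL2 replicate 1 reached down to the untreated arrays, and for Sqle untreated replicate 4 lay among the IL2 arrays. A second probe of Fdft1 gave a log2 fold change of 0.13.

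The earlier mevalonate steps had log2 fold changes of at most 0.19 in size, the largest being close to that of Fdft1. Hmgcs1, the cytosolic synthase that makes HMG-CoA, had a log2 fold change of 0.19 (SE 0.17), and Idi1, the isomerase of isopentenyl diphosphate, had 0.12 (SE 0.14), with 0.16 from a second probe. The kinases and the decarboxylase between them gave -0.02 (Mvk, SE 0.08), 0.09 (Pmvk, SE 0.11) and -0.02 (Mvd, SE 0.13), and the farnesyl diphosphate synthase gene Fdps 0.03 (SE 0.24). Fdps had the widest spread of the IL2 arrays in this list, with an SD of 0.46 over the 4 arrays and replicate 1 at 8.58, below every other array. After lanosterol, the demethylase gene Cyp51 had a log2 fold change of 0.15 (SE 0.12), the reductase gene Tm7sf2 -0.07 (SE 0.12), the methylsterol oxidase gene Msmo1 -0.04 (SE 0.14) and the dehydrogenase gene Nsdhl -0.02 (SE 0.08). The last steps gave 0.11 for the isomerase gene Ebp (SE 0.15), 0.13 for the desaturase gene Sc5d (SE 0.09) and 0.04 for Dhcr7 (SE 0.14), the reductase that yields cholesterol. Stard4, a cytosolic cholesterol carrier and known SREBP2 target, had 0.15 (SE 0.09). Mvk and Nsdhl were measured most tightly here, each with a 95% interval within -0.20 and 0.17.

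A feature of their promoters that played no part in choosing these genes was a shared CCAAT box, the motif bound by NF-Y, a factor known to act beside SREBP at sterol genes. RefSeq windows of GRCm38.p6, from 250 bases before to 50 after the start site, were matched for 27 of the 35 genes, all but Fdps, Fdft1, Sqle, Stard4, Scd1, Scd2, Fads1 and Abcg1. On either strand, CCAAT was found in a window of all 14 matched sterol synthesis genes, 3 of 6 fatty acid genes, 3 of 4 regulators and 0 of 3 efflux and oxysterol genes, against 41.1% of all 27025 genes in the table. In 13 of the 14 sterol genes a match began within 100 bases upstream of the start site, a position that was not counted over all genes. The E-box CACGTG was present in 7 of the 27 genes (25.9%, against 8.09% of all genes) and its longer form TCACGTGA in 0 (1.12% of all genes). TCACNCCAC, a core of the sterol regulatory element that SREBP factors bind, was found in 1 gene, Hmgcs1 (1.44% of all genes). A match describes letters in the window and not binding.

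The 250 bases before the start site are given for the gene with the sterol element (Hmgcs1), the largest positive differences among sterol and fatty acid genes (Lss, Hsd17b7 and Fasn) and, for contrast, an efflux gene without a CCAAT box (Abca1). Capitals mark CCAAT, TCACNCCAC and CACGTG on either strand, so that CCAAT on the other strand reads ATTGG. The sequences lie on GRCm38.p6 at chr13:119690101-119690350 on the plus strand (Hmgcs1), chr10:76531355-76531604 on the plus strand (Lss), chr1:169969206-169969455 on the minus strand (Hsd17b7), chr11:120824548-120824797 on the minus strand (Fasn) and chr4:53159896-53160145 on the minus strand (Abca1), each written 5′ to 3′ along its gene.
Hmgcs1: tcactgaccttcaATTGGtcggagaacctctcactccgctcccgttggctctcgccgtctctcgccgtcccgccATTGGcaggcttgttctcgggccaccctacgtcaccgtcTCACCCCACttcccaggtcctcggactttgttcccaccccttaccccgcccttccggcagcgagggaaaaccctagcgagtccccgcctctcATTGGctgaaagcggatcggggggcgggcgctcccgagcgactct
Lss: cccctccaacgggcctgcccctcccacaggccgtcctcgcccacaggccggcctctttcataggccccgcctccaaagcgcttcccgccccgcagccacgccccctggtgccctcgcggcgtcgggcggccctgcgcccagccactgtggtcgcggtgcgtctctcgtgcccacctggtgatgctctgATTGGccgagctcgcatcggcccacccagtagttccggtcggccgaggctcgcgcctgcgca
Hsd17b7: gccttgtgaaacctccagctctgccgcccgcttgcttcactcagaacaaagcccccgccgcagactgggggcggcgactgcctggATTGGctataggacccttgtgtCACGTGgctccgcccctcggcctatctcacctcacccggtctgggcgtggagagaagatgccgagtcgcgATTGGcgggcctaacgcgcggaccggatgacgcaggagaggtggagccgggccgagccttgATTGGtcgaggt
Fasn: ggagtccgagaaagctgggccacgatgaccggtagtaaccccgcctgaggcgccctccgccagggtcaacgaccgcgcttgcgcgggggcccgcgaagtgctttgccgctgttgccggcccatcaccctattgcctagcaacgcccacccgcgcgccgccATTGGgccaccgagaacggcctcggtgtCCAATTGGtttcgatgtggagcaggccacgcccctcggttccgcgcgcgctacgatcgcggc
Abca1: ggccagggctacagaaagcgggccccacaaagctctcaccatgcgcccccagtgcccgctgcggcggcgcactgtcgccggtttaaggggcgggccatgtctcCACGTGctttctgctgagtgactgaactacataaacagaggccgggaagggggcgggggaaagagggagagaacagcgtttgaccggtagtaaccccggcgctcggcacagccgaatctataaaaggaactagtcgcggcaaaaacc

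Fatty acid genes held both the largest positive log2 fold change of the 35, in Fasn, and the second largest negative, in Scd1. Of 9 members, 4 were above 0 and 5 below, the median was -0.01 (0.02 with arrays centred on their median), and 0 passed the test (3 at an unadjusted p under 0.05). Fasn encodes fatty acid synthase, which builds palmitate. It had log2 intensities of 9.59, 9.64, 10.20 and 10.32 in IL2 arrays, against 8.85, 8.64 and 9.61 in untreated arrays. Untreated replicate 4 lay between IL2 replicates 1 and 2 and was the only overlap. The means were 9.94 ± 0.37 (SD, n = 4) and 9.03 ± 0.51 (SD, n = 3), a 1.87-fold difference with a log2 fold change of 0.90 (SE 0.28, 95% interval 0.26 to 1.55, limma adjusted p = 0.175). Without untreated replicate 4 it was 1.19, and the adjusted p over all leave-one-out fits ran from 0.102 to 0.471. Its promoter, shown above, has CCAAT boxes on both strands, 2 of which overlap.

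Scd1, the desaturase that turns saturated into monounsaturated fatty acids and is a known target of both SREBP1 and LXR, lay lower in every IL2 array. Its log2 intensities were 10.16, 10.18, 10.39 and 10.18 with IL2, against 10.99, 10.57 and 11.12 without. The means were 10.23 ± 0.11 (SD, n = 4) and 10.90 ± 0.29 (SD, n = 3), a log2 fold change of -0.67 (SE 0.14, 95% interval -0.99 to -0.34). The limma adjusted p was 0.0505, just above the threshold, and Scd1 was called lower in 5 of 18 alternative settings, with log2 fold changes of -0.83 to -0.55 over all 18. Scd2, an isoform best known from brain, had a log2 fold change of -0.01 (SE 0.24).

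Elongases split in direction as well. Elovl5, which lengthens polyunsaturated fatty acids, had 9.02, 9.47, 9.43 and 9.59 in the IL2 arrays, against 9.98, 9.62 and 9.76 in the untreated arrays. All IL2 arrays lay below, though the nearest arrays were close together, with a log2 fold change of -0.41 (SE 0.15) and an adjusted p of 0.28 in limma. Elovl6, which lengthens palmitate, had 0.24 (SE 0.14). Acaca, the acetyl-CoA carboxylase gene of the committed step, had 8.36, 8.51, 8.80 and 8.98 with IL2, against 8.42, 8.01 and 8.55 without. The higher untreated arrays overlapped the lower IL2 arrays, with a log2 fold change of 0.33 (SE 0.18) and an adjusted p of 0.532 in limma. A second probe gave a log2 fold change of 0.39. Acly, which makes cytosolic acetyl-CoA from citrate, had 0.14 (SE 0.22). The desaturase genes of polyunsaturated fatty acids gave -0.28 for Fads1 (SE 0.34) and -0.12 for Fads2 (SE 0.23). Fads1 had the widest 95% interval of the 35 genes, from -1.08 to 0.51, with untreated replicate 4 at 8.82 against 7.69 and 7.59 in untreated replicates 2 and 3.

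**Figure D3:**
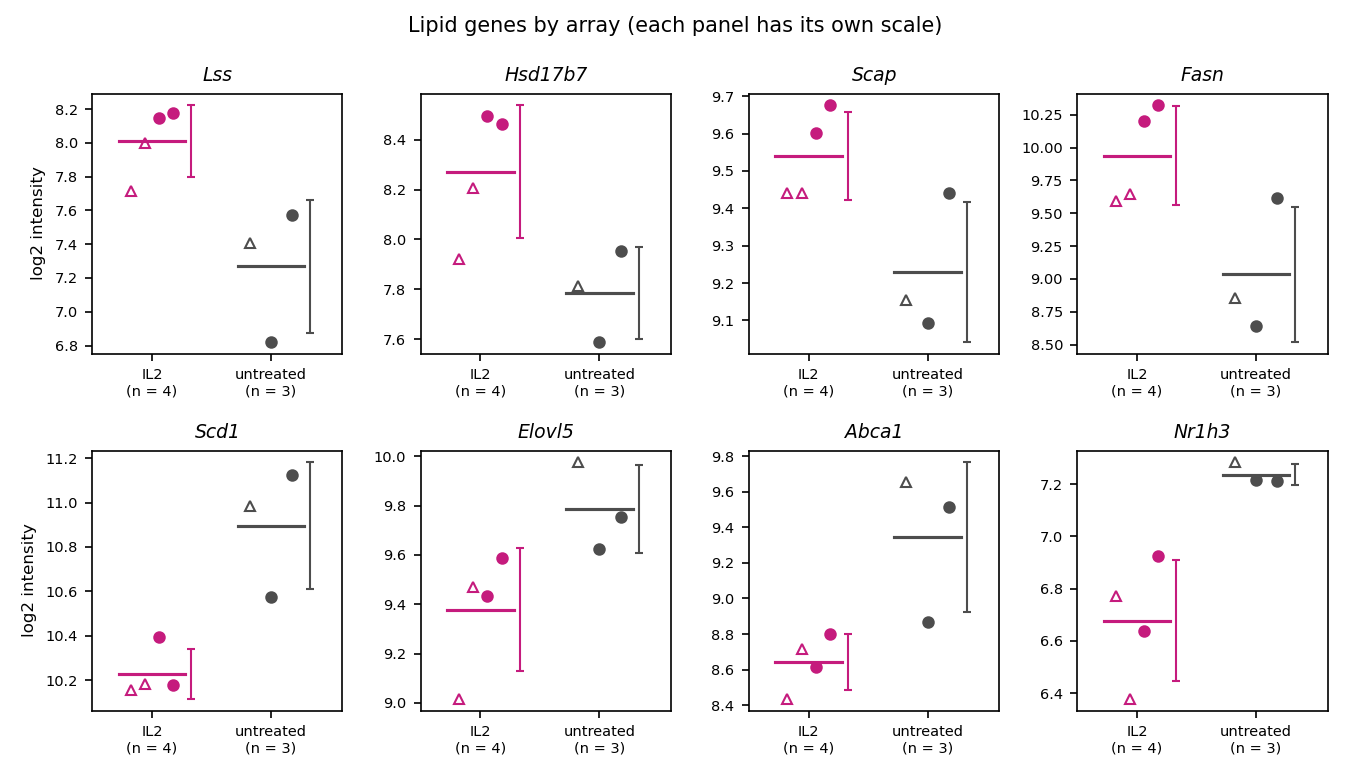
Log2 intensity (y axis) of 8 lipid genes in each IL2 array (left, magenta, n = 4) and each untreated array (right, grey, n = 3), with the mean (line) and SD (bar). Filled circles are replicates 3 and 4, whose titles give the culture time, and open triangles are replicates 1 and 2. IL2 arrays lie wholly above the untreated arrays for Lss and wholly below for Scd1, Elovl5, Abca1 and Nr1h3.

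Efflux and oxysterol genes were lower in the IL2 arrays for 3 of 4 members, without passing the test. The median log2 fold change was -0.50, with 0 of 4 called and 2 at an unadjusted p under 0.05. Abca1, which encodes the exporter that loads cholesterol onto apolipoprotein A-I, had log2 intensities of 8.44, 8.72, 8.61 and 8.80 with IL2, against 9.66, 8.87 and 9.51 without. The groups were apart, with untreated replicate 3 close to the IL2 arrays, and the log2 fold change was -0.70 (SE 0.19, 95% interval -1.15 to -0.26, limma adjusted p = 0.125). Nr1h3, the gene of the oxysterol receptor LXR alpha, had 6.77, 6.38, 6.64 and 6.92 in the IL2 arrays, against 7.28, 7.22 and 7.21 in the untreated arrays. All IL2 arrays were lower, by a log2 fold change of -0.56 (SE 0.13) and an adjusted p of 0.0719 in limma. Abcg1, an exporter of cholesterol to high-density lipoprotein, had 8.24, 8.78, 9.11 and 9.10 with IL2, against 9.08, 9.02 and 9.62 without. The groups overlapped, with a log2 fold change of -0.43 (SE 0.24) and an adjusted p of 0.542 in limma. Ch25h, the hydroxylase that makes an oxysterol from cholesterol, was dim, at 5.70, 5.70, 5.66 and 5.70 with IL2, against 5.39, 5.70 and 5.88 without. The IL2 arrays lay inside the range of the untreated arrays, with a log2 fold change of 0.04 (SE 0.12).

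Abca1, Nr1h3 and Abcg1 are well expressed in macrophages. In the mixed list of 15 macrophage and monocyte markers 12 were below 0 and 3 above, with 7 called lower and a median of -1.10. The list was not uniform, as Mertk (-0.07), C1qa (-0.06) and C1qc (0.004) were near 0 and C1qb was at 0.36. The part of these cells in the differences of the efflux genes, Scd1 and Elovl5 was not tested. Within the arrays whose titles give the time the efflux list had a median of -0.32 and the macrophage and monocyte markers -0.76. Within the other arrays, where untreated replicate 2 stands alone, the medians were -0.64 and -1.31. Other lists were also lower in the latter set, so the shift is not particular to these lists. The 2 medians were 1.62 and 1.02 for NK cell markers, -0.49 and -0.93 for neutrophil markers, -0.25 and -0.49 for B cell markers, and 0.22 and -0.01 for sterol genes. Over all genes they were -0.02 and 0.02.

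The lipid genes also varied between replicates of a group. IL2 replicate 1 was the lowest or joint lowest of the 4 IL2 arrays for 29 of the 35 genes, and untreated replicate 3 was the lowest or joint lowest of the 3 untreated arrays for 24. Neither count was made over all genes, so neither can be read as particular to the lipid genes. IL2 replicates 3 and 4 both lay above replicates 1 and 2 for 22 of 35 genes, against 36.1% of all genes, among them all 4 regulators, 11 of 18 sterol genes and 6 of 9 fatty acid genes but 1 of 4 efflux genes. Titles of replicates 3 and 4 give the culture time and those of replicates 1 and 2 do not, so that this split follows the style of the titles. The upper quartile of intensity on the array also differed, at 291, 318, 342 and 350 in IL2 replicates 1 to 4. It was 318, 278 and 318 in untreated replicates 2 to 4. The part of this array-wide difference in the counts above was not tested. Within the arrays that give the time, 15 of 18 sterol genes were above 0 with a median of 0.22, and within the others, which hold 1 untreated array, 8 of 18 with a median of -0.01. For 30 of the 35 genes the signed log2 fold change was more positive in the arrays that give the time, a count not made over all genes. The median over all genes was -0.02 in those arrays and 0.02 in the others. Fasn was higher with IL2 in both sets of arrays, by 1.13 and 0.77, and Lss by 0.96 and 0.45, while Scd1 had -0.56 and -0.82. Whether the style of the titles marks a batch was not tested.

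**Figure D4:**
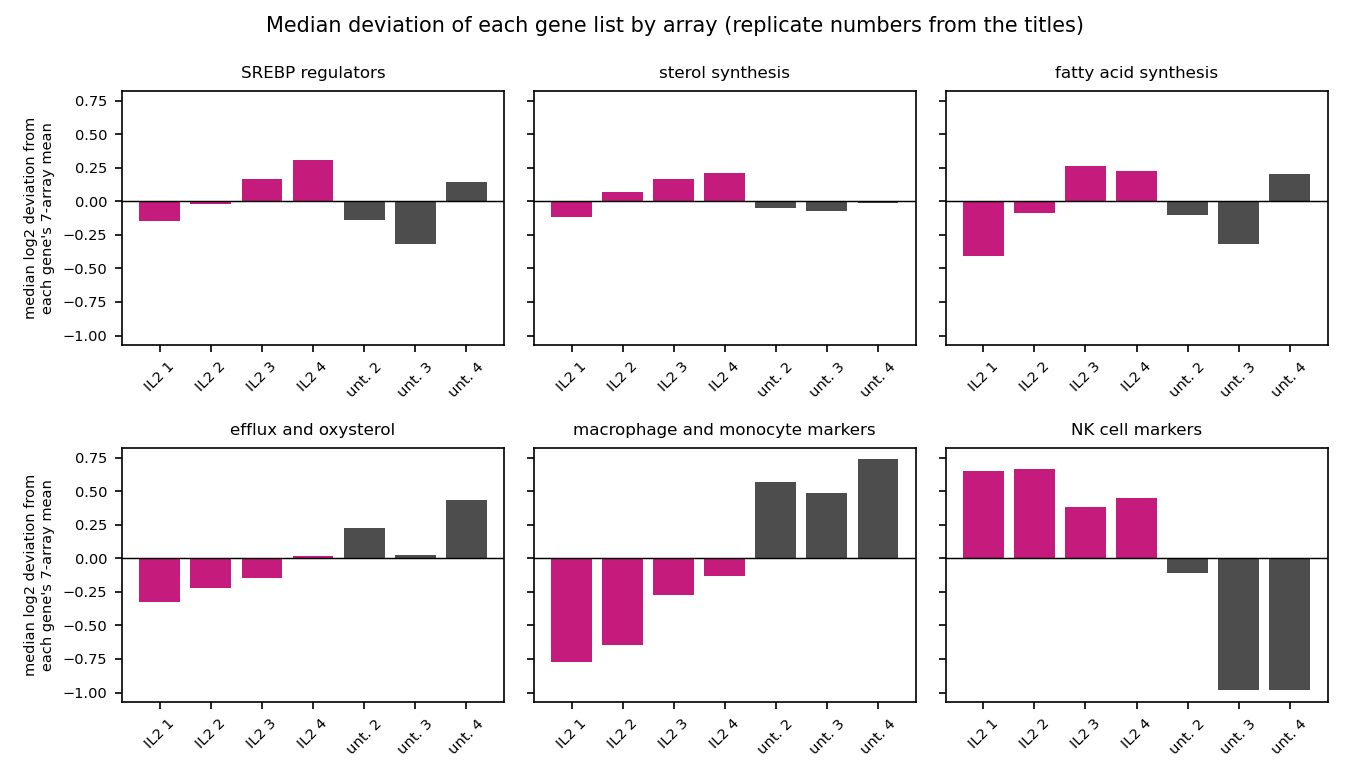
Median over each gene list of the log2 deviation from every gene's mean over the 7 arrays (y axis), by array (x axis, IL2 in magenta and untreated, abbreviated unt., in grey). Sterol and fatty acid genes were lowest in IL2 replicate 1 among all arrays, at -0.12 and -0.41, whereas macrophage and monocyte markers were below 0 in all IL2 arrays and above 0 in all untreated arrays.

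Among other genes of lipid handling, 4 passed the test. Of 47 measured, 1 rose and 3 fell, where 2.08% and 0.901% of all genes did. These lists too were chosen with earlier results of these data known. Of 14 other genes of sterol transport and control, Lipa, the lysosomal acid lipase that frees cholesterol from its esters, fell 3.24-fold. Its log2 intensities were 9.22, 9.61, 9.86 and 9.94 with IL2, against 11.46, 11.14 and 11.46 without, a log2 fold change of -1.70 (SE 0.18) and an adjusted p of 0.00368 in limma. The groups were more than 1 apart on the log2 scale at their nearest arrays. The other 13 did not pass, with a median of 0.06 for the whole list. Of 11 other genes of efflux and oxysterol signalling, all 11 were below 0, where 45.5% of all genes were above 0, and 2 fell. Pparg, a nuclear receptor of lipid metabolism, had 7.05, 6.97, 7.14 and 7.20 in the IL2 arrays, against 8.49, 8.56 and 8.55 in the untreated arrays, a log2 fold change of -1.44 (SE 0.08) and an adjusted p of 0.000234 in limma. Gpr183, a receptor for oxysterols that guides immune cell migration, had 8.94, 9.32, 9.10 and 9.13 with IL2, against 10.21, 9.88 and 9.94 without, a log2 fold change of -0.89 (SE 0.12) and an adjusted p of 0.00972 in limma. Both genes were tight within each group and wide apart between them.

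Of 22 other genes of fatty acid synthesis and activation, 1 rose and 0 fell, with a median of 0.05. Acot7, a thioesterase that splits long-chain acyl-CoA, had 9.40, 9.68, 9.79 and 9.79 with IL2, against 8.94, 8.95 and 9.11 without, a log2 fold change of 0.66 (SE 0.11) and an adjusted p of 0.0255 in limma. Every IL2 array was above every untreated array, but of the 7 fits that left out 1 array the call held only in the one without IL2 replicate 1. Lipa, Pparg and Gpr183 kept their calls in all 7 fits that left out 1 array. Lipa and Pparg are well expressed in macrophages and Gpr183 in B cells and myeloid cells. The median of the macrophage and monocyte markers was -1.10, and the part of such cells in these falls was not tested. Of 7 B cell markers 0 were called (4 at an unadjusted p under 0.05), with a median of -0.29.

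**Figure D5:**
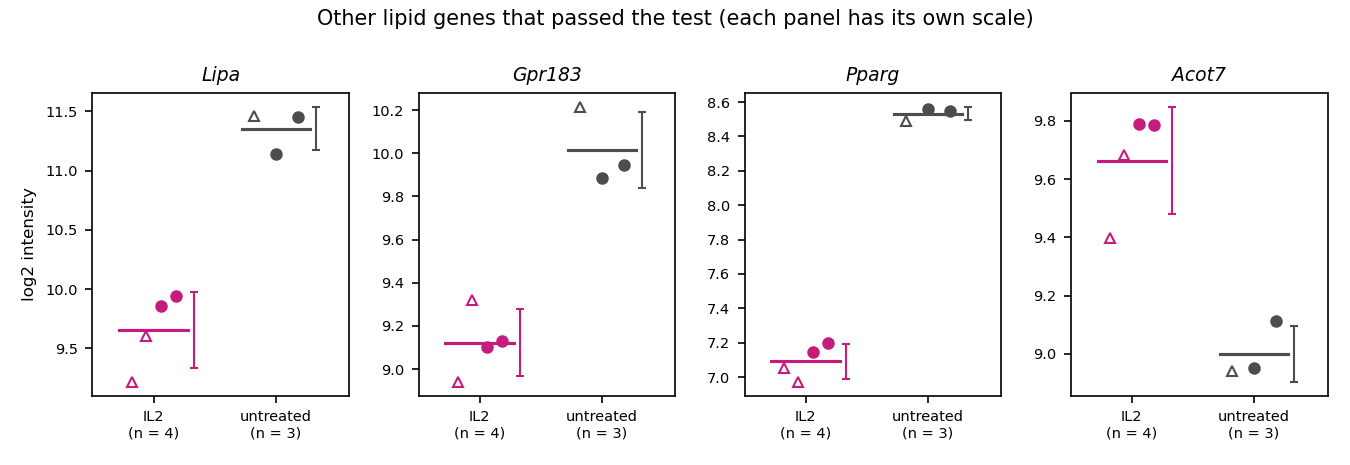
Log2 intensity (y axis) of the 4 other lipid genes that passed the limma test, in each IL2 array (left, magenta, n = 4) and each untreated array (right, grey, n = 3), with the mean (line) and SD (bar). Filled circles are replicates 3 and 4 and open triangles replicates 1 and 2. Lipa, Gpr183 and Pparg lie lower in all IL2 arrays and Acot7 higher.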

How the data were processed

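The deposited values were intensity values on a linear scale, 1 per probe and array, and the submitters' processing notes name RMA and Affymetrix Power Tools. Versions, settings and genome build are not given in the sources used here. All intensities were brought to log2 with no offset. Of 24922 probes, 21425 had 1 gene symbol, and the brightest by mean over all arrays was kept per gene, leaving 19752 genes, none filtered on signal. All genes were fitted together in limma 3.58.1 (R 4.3.3), with treatment as the only factor and default eBayes settings, and p-values were adjusted by Benjamini-Hochberg over all genes. The SE is that of the moderated fit and ± is the SD over arrays. On simulated data the fit was tested before use. The number of arrays limits the precision.

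At least 2 arrays held exactly equal intensities for 54.3% of genes and for 13 of the 35. Genes named with values in every array were those whose groups did not overlap and the 4 with the largest difference per role, and of other lists those called (at most 6). Of each marker list the 2 with the largest difference were named, and those not given above follow. Of 12 neutrophil markers they were Mmp8 (-2.49) and S100a9 (-0.95). All 12 were below 0, with a median of -0.72, 1 called lower and 7 at an unadjusted p under 0.05. The linear intensities of the neutrophil markers summed to 5885 to 9159 in the IL2 arrays and 9922 to 13829 in the untreated arrays. Of 8 dendritic cell markers they were Cd209a (-1.71) and Flt3 (-1.00), with 1 called lower, 4 above and 4 below 0 and a median of -0.05. Clec9a, at 0.37 and wholly above, was named after its value was seen. Of 7 B cell markers, all below 0 with a median of -0.29, they were Blk (-0.54) and Ebf1 (-0.49). Of 8 T cell markers they were Cd5 (-0.51) and Cd4 (-0.38). The T cell list had 4 above and 4 below 0, a median of -0.05, 0 called and 0 at an unadjusted p under 0.05. The members, lists and tests were chosen with earlier results of these data known. Some listed genes were not analysed here. Promoter windows came from RefSeq.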

Additional observations from a re-analysis of the deposited data

Results flagged for a closer look

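For 4 of the 35 lipid genes 1 IL2 array stood apart from the other 3 by a gap that filled most of the group's range. For normally distributed values without ties, chance gives such a gap in about 5% of groups of this size. That rate cannot be applied here, because at least 2 arrays held exactly equal intensities for 54.3% of all genes. Such gaps were not counted over all genes, so the 4 cannot be read as more than chance gives. Pmvk was at 7.02 in IL2 replicate 4, against 6.64 to 6.68 in the other IL2 arrays (gap over range 0.907). Its IL2 replicates 1 and 2 held the equal value of 6.68. Idi1 was at 8.68 in IL2 replicate 1, while the highest of the others was at 9.04 (0.879). Scd1 was at 10.39 in IL2 replicate 3, against 10.16 to 10.18 (0.899), which is still below every untreated array. Ch25h was at 5.66 in IL2 replicate 3, while the other 3 IL2 arrays held the equal value of 5.70, so that the gap over range was 1.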

How the results depend on the processing

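After quantile normalization once more, 1 of the 35 lipid genes was called higher (Lss, 0.72, limma adjusted p = 0.0424) and 4 lower (Scd1 -0.79, Elovl5 -0.55, Abca1 -0.84 and Nr1h3 -0.54), and 10 other pathway genes were called lower in place of 3. Of all 19752 genes that fit called 694 higher and 577 lower. With arrays centred on their median, with genes below the median signal left out, or with a gene's probes averaged, 1 was called lower (Scd1). In that order, these fits called 177 of 19752, 217 of 9876 and 180 of 19752 genes lower. With the replicate number as a block, 0 of the 35 were called either way and 2 other pathway genes were called higher in place of 1, as also with title style as a block or array quality weights. With either block, or with genes below the median signal left out, 4 other pathway genes were called lower in place of 3, Apoe being added (-1.15, limma adjusted p = 0.0919 in the fit as reported, named after its value was seen). In the 4 arrays with the time in their titles, 0 other pathway genes were called higher and 1 lower, and the efflux median was -0.32. Over the 3 arrays whose titles do not, 0 and 0 were called, in a fit that called 0 of all genes. Both hold fewer samples. With an offset of 16 before log2, or eBayes with trend and robust, 0 of the 35 were called. With each array left out in turn, 0 of the 35 were called higher and 0 to 2 lower (2 without untreated replicate 3), 0 to 1 other pathway genes higher and 3 lower, and the medians ran from 0.05 to 0.20 (sterol), -0.16 to 0.23 (fatty acid), -0.58 to -0.41 (efflux) and 0.08 to 0.30 (regulators). The fatty acid median thus changed sign. It was -0.14 and the regulator median 0.03 after quantile normalization once more, and the sterol median was 0.20 with the replicate block and -0.01 over the 3 arrays. Over genes, the deviations of same-numbered arrays had correlations of 0.46, -0.30 and 0.31 for replicates 2, 3 and 4. With other numbers the correlations ran from -0.23 to -0.005, from -0.28 to 0.45 and from -0.48 to 0.29. Replicates 2 and 4 thus correlated best with their own number and replicate 3 did not, and the number was not taken as a pairing. The cause of the changes with normalization was not tested.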
